A study of Mus musculus with 12 samples.

Results

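Liver makes glucose by gluconeogenesis and breaks it down by glycolysis. The genes described here control both routes and are Pck1, Ppargc1a, Pcx, Fbp1, G6pc, Slc2a2, Pfkl and Pklr. They were chosen by symbol and located in the count table by their Ensembl mouse gene identifiers, and all 8 were found among the 27022 genes listed. The choice was by function, with earlier results of these data known.

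The livers of 6 female SJL/J mice were sequenced, 3 from an AIN-93G control diet with 50 ppm iron and 3 from an AIN-93G diet with 2% carbonyl iron, called iron-loaded below. All mice arrived at 3 weeks of age on the control diet, and 1 cage was moved to the high iron diet at 6 weeks. At 11 weeks, food was withdrawn from 6:30 am and livers were taken between 11:30 am and 1 pm, after 5 to 6.5 hours without food, and after the blood had been flushed out with saline. Each RNA was made into 1 library with a whole transcript kit from KAPA (Trad-KAPA), which fragments whole transcripts, and 1 with the Lexogen QuantSeq 3’ kit (3’-LEXO), which primes at the 3′ end, so that 12 libraries resulted. The mice shared strain, sex, age and fast. The mice of one diet came from one cage, and effects of cage and diet cannot be told apart.

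A Trad-KAPA library held 13834682 to 16553616 counts, and a 3’-LEXO library 10724672 to 14104236. As a check for a library deposited more than once, counts were compared between libraries of one kit and diet (chi-square over its degrees of freedom), and none were that alike. The pair of iron-loaded mice 2 and 3 had the lowest values, 5.98 in Trad-KAPA and 5.97 in 3’-LEXO, where the other pairs had 18.5 to 53.5 and 25.8 to 59.8. Hepatocyte markers (Alb, Ttr, Apoa1, Apob, Fgb, Cps1, Ass1 and Cyp2e1) summed to between 129339 and 169430 in Trad-KAPA, in counts scaled to the library total (CPM), with overlapping diets. The 10 Kupffer cell and macrophage markers summed to 463 to 729 CPM on the control diet and 822 to 894 CPM on the iron-loaded diet in Trad-KAPA, without overlap. In 3’-LEXO the same markers summed to 1089 to 1459 and 1442 to 1673 CPM, which overlap. The 6 cholangiocyte markers summed to 23.7 to 26.5 and 33.5 to 39.0 CPM in Trad-KAPA. In 3’-LEXO they summed to 30.2 to 37.4 and 43.4 to 44.2 CPM. Of them only Spp1 passed the test for diet used below, higher in both kits. Epcam was also higher, Sox9 was lower, and Krt19, Krt7 and Cftr were not tested. The 8 sinusoidal endothelial markers summed to 338 to 412 and 287 to 325 CPM in 3’-LEXO. In Trad-KAPA they summed to 352 to 460 and 429 to 511 CPM, which overlap, with the iron-loaded range higher. Lyve1 passed the test in both kits, higher, Stab1 in Trad-KAPA, higher, and Stab2 in 3’-LEXO, lower. Of the Kupffer cell and macrophage markers, Marco passed in both kits and Vsig4 in Trad-KAPA, all higher. Of the hepatocyte markers only Ass1 passed, lower in both kits. Sums of the other marker lists overlapped between diets, and 0 markers were at 0 in all libraries. In those lists only Des, a stellate cell marker, passed, lower in Trad-KAPA. The part of these other cells in the results that follow was not tested. A change in the number of cells of a type and a change in RNA per cell cannot be told apart in these tissue samples.

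In gluconeogenesis, pyruvate carboxylase (Pcx) turns pyruvate into oxaloacetate and phosphoenolpyruvate carboxykinase (Pck1) turns oxaloacetate into phosphoenolpyruvate. Fructose bisphosphatase (Fbp1) and the catalytic subunit of glucose-6-phosphatase (G6pc) act near the end of the route, and the transporter GLUT2 (Slc2a2) carries glucose across the hepatocyte membrane in either direction. Phosphofructokinase (Pfkl) and pyruvate kinase (Pklr) are the liver forms of enzymes that catalyse irreversible steps of glycolysis. Fasting raises glucagon and lowers insulin, which induces Pck1 and G6pc through cAMP signalling, FOXO1 and the coactivator PGC-1α (Ppargc1a), while Pklr is induced by feeding through the carbohydrate sensor ChREBP.

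Promoter sequences of 4 genes are shown because Pck1, Ppargc1a and G6pc are the fasting-induced members and Slc2a2 is the member whose level passed the test for diet. They are RefSeq promoter windows of GRCm38.p6, from 250 bases before to 50 bases after the annotated start, read 5′ to 3′ along the gene. Capitals mark matches on either strand to the cAMP response element core TGACG (reverse CGTCA), the TATA box TATAAA or the CCAAT box (reverse ATTGG). Of 32851 such windows in the mouse genome, 20.8% held the core element, 13.6% the TATA box and 37.4% the CCAAT box. Each window is named with its position in that build and its strand.
Pck1, chr2:173152823-173153122, plus strand: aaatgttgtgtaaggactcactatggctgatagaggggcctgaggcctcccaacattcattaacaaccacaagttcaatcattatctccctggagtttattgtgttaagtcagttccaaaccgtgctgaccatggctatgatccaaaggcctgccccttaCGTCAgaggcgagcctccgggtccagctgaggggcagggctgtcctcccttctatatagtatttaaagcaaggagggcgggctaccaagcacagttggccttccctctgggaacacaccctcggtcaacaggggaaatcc
Ppargc1a, chr5:51567676-51567975, minus strand: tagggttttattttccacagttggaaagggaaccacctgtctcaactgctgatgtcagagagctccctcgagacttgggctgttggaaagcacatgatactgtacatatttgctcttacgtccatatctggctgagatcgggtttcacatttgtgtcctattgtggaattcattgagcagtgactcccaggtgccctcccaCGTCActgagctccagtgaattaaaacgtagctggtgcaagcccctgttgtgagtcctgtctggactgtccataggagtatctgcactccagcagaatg
G6pc, chr11:101367466-101367765, plus strand: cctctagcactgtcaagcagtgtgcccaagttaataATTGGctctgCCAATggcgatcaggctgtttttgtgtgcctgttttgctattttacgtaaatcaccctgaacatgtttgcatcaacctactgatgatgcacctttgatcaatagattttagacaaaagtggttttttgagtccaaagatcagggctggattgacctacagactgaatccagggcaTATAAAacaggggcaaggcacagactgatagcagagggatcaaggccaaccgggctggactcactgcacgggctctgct
Slc2a2, chr3:28697653-28697952, plus strand: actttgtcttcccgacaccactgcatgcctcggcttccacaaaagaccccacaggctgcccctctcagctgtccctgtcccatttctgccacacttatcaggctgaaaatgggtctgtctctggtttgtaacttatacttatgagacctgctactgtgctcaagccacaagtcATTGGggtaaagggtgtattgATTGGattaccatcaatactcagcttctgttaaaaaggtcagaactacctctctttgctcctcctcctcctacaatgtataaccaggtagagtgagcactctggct
The core element was found on the reverse strand in both Pck1 and Ppargc1a, 90 and 49 bases before the start, and in no window of the other 6 genes. A TATA box lay 29 bases before the start of G6pc and 31 bases before the start of the second of the Pklr windows. Slc2a2 held a pair of reverse CCAAT boxes, at 77 and 56 bases before the start. The forkhead core GTAAACA (reverse TGTTTAC), present in 3.65% of windows, was found in none of the 10 windows of the 8 genes. The E-box CACGTG, present in 7.15%, was found only in the first Pcx window. A match is a description of the letters and does not show that a factor binds there.

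In GRCm38, the files' build, and with GENCODE M21 annotation, the genes lie on chromosomes 2 (Pck1), 3 (Slc2a2 and Pklr), 5 (Ppargc1a), 10 (Pfkl), 11 (G6pc), 13 (Fbp1) and 19 (Pcx). Their merged exons sum to between 1702 bp for Fbp1 and 6675 bp for Pfkl. At its 3′ end Pklr shares 711 exon bp with Hcn3 on the opposite strand, and 20.5% of its 50-base stretches also occur in Hcn3. Hcn3 received 41 counts in all 12 libraries together, and whether strand was used in counting is not given in the sources used here. For this reason Pklr counts are uncertain. Of the other members, at most 0.136% of such stretches occurred in another gene.

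Levels were compared between genes only in Trad-KAPA and per length, as CPM per kb of merged exon (mean ± SD, n = 6 mice). Fbp1 was highest at 575 ± 55.3 CPM per kb, followed by Pck1 at 334 ± 74.8, and their ranges over the mice did not overlap. Next came G6pc at 167 ± 67.3, Pcx at 152 ± 5.18, Slc2a2 at 130.3 ± 45.8 and Pklr at 117 ± 23.0 CPM per kb, and the ranges of these neighbours overlapped. All 4 were lower than Pck1 in every mouse. Far lower were Pfkl, at 5.58 ± 0.819, and the coactivator gene Ppargc1a, at 2.65 ± 0.624 CPM per kb. Among all genes listed, Fbp1 ranked 62nd by this measure and Ppargc1a 7357th.

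Of the members, 6 were set beside a relative that is used more in other tissues or cell compartments. Per kb in Trad-KAPA, Pck1 exceeded the mitochondrial Pck2 by a median of 553-fold over the 6 mice, and Pklr exceeded the muscle-type Pkm 52.7-fold. G6pc exceeded the ubiquitous G6pc3 55.1-fold, and Slc2a2 exceeded Slc2a1 33.3-fold. Fbp2, the muscle form of fructose bisphosphatase, had only 1 to 9 counts per Trad-KAPA library. Pfkl exceeded the platelet form Pfkp 21.4-fold, and the muscle form Pfkm 1.24-fold, with a range from 1.15 to 1.68. In 3’-LEXO, where counts were not divided by length, Pfkl had 4.14 times the CPM of Pfkm, with a range from 2.73 to 5.39. Some other median ratios were smaller there, at 12.4 for Pklr over Pkm, 393 for Pck1 over Pck2 and 8.94 for Pfkl over Pfkp. Those of G6pc over G6pc3 and Slc2a2 over Slc2a1 were larger, at 63.0 and 62.7. The size of these ratios therefore depends on the kit and on the length used.

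Slc2a2, the GLUT2 gene, was the only one of the 8 whose level passed the test for diet, and it did so in Trad-KAPA. There it measured 577, 446 and 580.1 CPM in control mice 1, 2 and 3 and 774, 1035 and 1088 CPM in iron-loaded mice 1, 2 and 3. In 3’-LEXO the same mice gave 329, 317 and 316 CPM on the control diet and 392, 555 and 532 CPM on the iron-loaded diet. Every iron-loaded mouse lay above every control mouse in both kits, as did 13.7% of the genes tested in both, and iron-loaded mouse 1 was the lowest of its group each time. The means rose from 535 ± 76.5 to 966 ± 168 CPM (SD, n = 3) in Trad-KAPA, a log2 fold change of 0.79 ± 0.19 (SE), or 1.73-fold with a 95% interval from 1.28 to 2.33, with an adjusted p of 0.0271 by the quasi-likelihood test of edgeR with Benjamini-Hochberg adjustment over all 13151 genes tested. For 3’-LEXO the means were 321 ± 6.91 and 493 ± 88.0 CPM, and edgeR gave a log2 difference of 0.57 ± 0.18 with an adjusted p of 0.0903, and an unadjusted p of 0.0108. The diet effects of the kits differed by -0.22 ± 0.27 on the log2 scale, and this difference did not pass its own test (edgeR, adjusted p = 1.00).

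**Figure D1:**
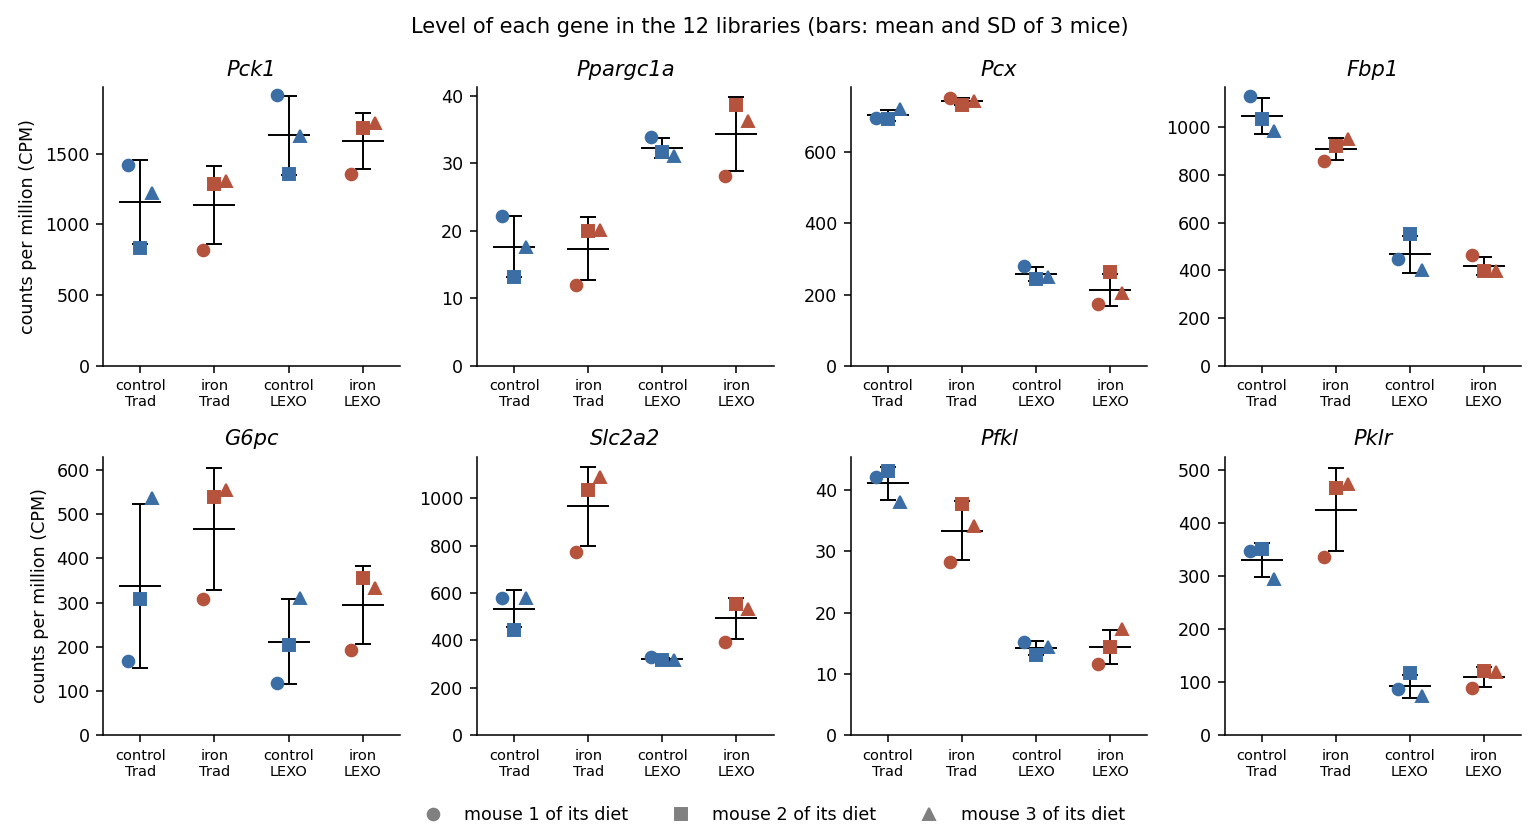
Level of each gene in CPM (vertical axes, from 0) in the 12 libraries, by diet and kit (Trad, Trad-KAPA; LEXO, 3’-LEXO). Symbols are single mice and bars give the mean and SD of 3 mice. Only Slc2a2 had iron-loaded mice above all control mice in both kits, from 774 against at most 580.1 CPM in Trad-KAPA.

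The call for Slc2a2 was sensitive to single mice. It was kept without iron-loaded mouse 1, at a log2 fold change of 0.95, and lost without any of the other 5 mice, with a log2 fold change between 0.66 and 0.88 and an adjusted p between 0.0576 and 0.0905 (edgeR). With iron-loaded mice 2 and 3 summed as 1 sample, an alternative chosen after seeing that they differed least, the log2 fold change was 0.71 with an adjusted p of 0.0780. The direction stayed the same in each of these fits and in both kits. In 3’-LEXO the gene passed the edgeR test only without iron-loaded mouse 1, at 0.72, and it passed in DESeq2, at 0.56 with an adjusted p of 0.0383.

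**Figure D2:**
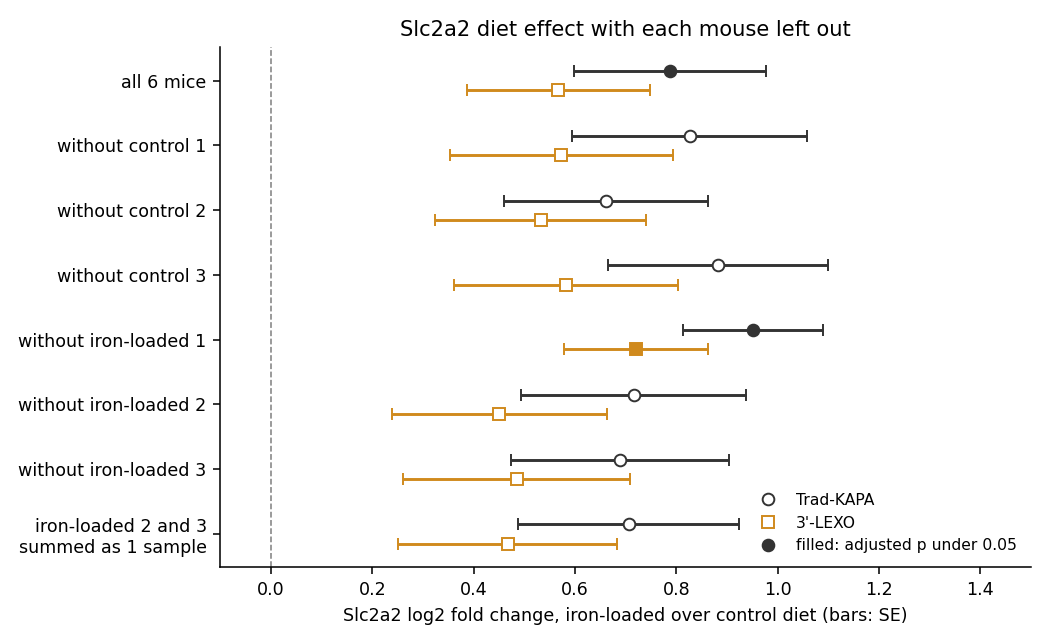
Log2 fold change of Slc2a2 (horizontal axis, iron-loaded over control diet, bars are SE) with all 6 mice, with each mouse left out and with iron-loaded mice 2 and 3 summed as 1 sample. Filled symbols have an adjusted p under 0.05; all values lie above 0, between 0.45 and 0.95.

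Of the 8 genes, 1 was called in Trad-KAPA (higher), where 17.1% of all genes tested were called (8.77% higher and 8.37% lower), and 0 in 3’-LEXO, where 6.1% were (3.17% higher and 2.92% lower). Of the genes called in Trad-KAPA, 51.2% were higher, or 61.5% when libraries were scaled by their total counts only. At an unadjusted p under 0.05, edgeR gave 2 of the 8 in Trad-KAPA, Slc2a2 and Pfkl, and 1 in 3’-LEXO, Slc2a2, where the shares over all genes were 34.3% and 25.0%. DESeq2 called 1 of the 8 in each kit, Slc2a2, beside 16.8% (Trad-KAPA) and 9.43% (3’-LEXO) of all genes. The 8 had a median log2 fold change of -0.04 (Trad-KAPA) and -0.00 (3’-LEXO), against 0.02 and 0.01 over all genes tested. The interaction of diet and kit passed the edgeR test for 0 of the 8, with 0.0% called of 14384 genes tested, and for 0 of the 8 at an unadjusted p under 0.05, beside 2.79% of all genes. That fit treated the 12 libraries as independent, although each mouse gave 1 library per kit. With the mouse as a block, the SE of this difference was 0.095 instead of 0.34 for Pck1 and 0.12 instead of 0.61 for G6pc. No member was called with the block either, and the share of all genes called in that fit is not given here. A lack of calls does not show that the kits gave equal diet effects.

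**Figure D3:**
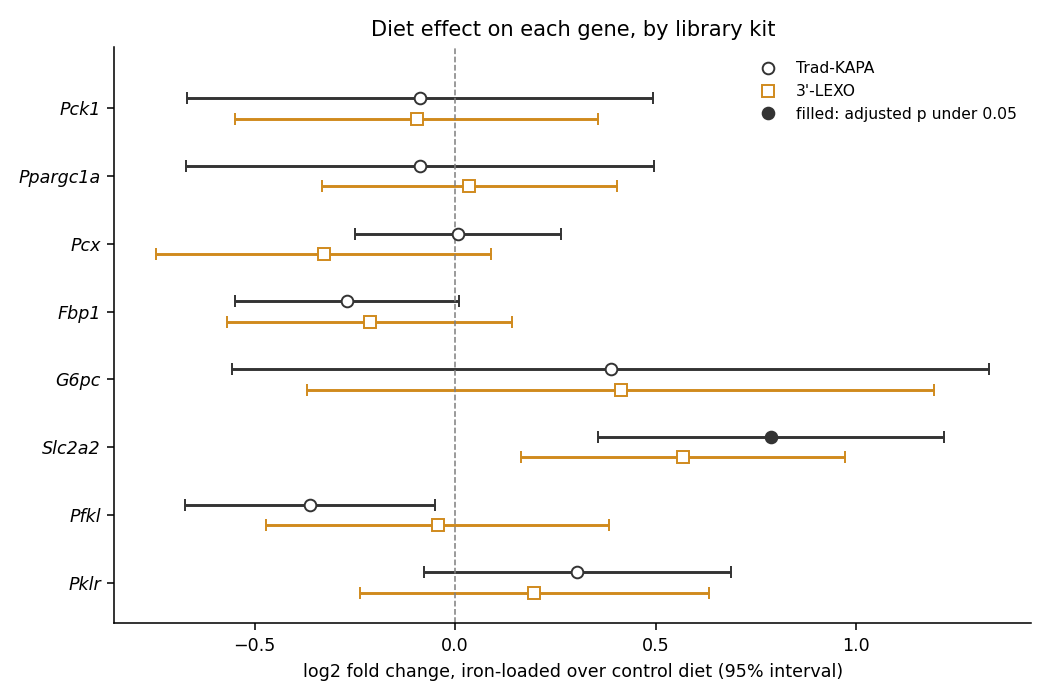
Log2 fold change of each gene (horizontal axis, iron-loaded over control diet) with its 95% interval from edgeR, for Trad-KAPA (circles) and 3’-LEXO (squares). Only Slc2a2 in Trad-KAPA, at 0.79, has a filled symbol, which marks an adjusted p under 0.05, and the widest intervals are those of G6pc.

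The fasting-induced pair Pck1 and Ppargc1a differed between mice of one diet, and the diets overlapped. Pck1 measured 1418, 832 and 1219 CPM in the Trad-KAPA controls and 818, 1285 and 1304 CPM in the iron-loaded mice. In 3’-LEXO it measured 1914, 1353 and 1622 CPM and then 1358, 1680.1 and 1719 CPM. The order of the mice within each diet was the same in both kits for all 6 of 6 pairs of mice, as it was for 10.1% of 9311 genes. Control mouse 2 and iron-loaded mouse 1 were lowest in both kits. The log2 difference between diets was -0.09 ± 0.25 (95% interval -0.67 to 0.49, edgeR, adjusted p = 0.836) in Trad-KAPA and -0.10 ± 0.20 (adjusted p = 0.806) in 3’-LEXO.

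Ppargc1a, which encodes PGC-1α, had few counts, from 167 to 475 per library. It measured 22.2, 13.1 and 17.6 CPM in Trad-KAPA control mice and 11.9, 19.9 and 20.1 CPM in iron-loaded mice. The lowest and highest mouse of each diet were those of Pck1. In 3’-LEXO it measured 33.9, 31.6 and 31.1 CPM and then 28.1, 38.6 and 36.3 CPM, and 4 of 6 pairs of mice kept their order between kits. Log2 differences between diets were -0.09 ± 0.26 in Trad-KAPA and 0.04 ± 0.16 in 3’-LEXO (edgeR, adjusted p = 0.837 and 0.919), with overlapping groups.

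The genes whose pattern over the 12 libraries was most like that of Pck1 were Abcg8, a sterol transporter gene, and Ppargc1a. Likeness was the root mean square difference of log2(CPM + 1) after each kit's mean had been removed, among 9311 genes with at least 50 counts on average in each kit. The difference was 0.07 for Abcg8 and 0.10 for Ppargc1a, against a median of 0.36 over all genes. For Ppargc1a, in turn, Pck1 came first at 0.10 and Abcg8 second at 0.13, against a median of 0.35. These values describe 6 mice measured in both kits, so that the libraries are not independent. For G6pc the nearest gene was Dusp1, an immediate early phosphatase gene, at 0.24, and the other members had no member among their nearest pair of genes.

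G6pc, whose product releases free glucose, varied most between mice. Trad-KAPA gave 169, 309 and 536 CPM on the control diet and 307, 539 and 554 CPM on the iron-loaded diet. 3’-LEXO gave 119, 205 and 311 CPM and then 193, 356 and 333 CPM. Control mouse 3 exceeded control mouse 1 by 3.18-fold in Trad-KAPA and 2.61-fold in 3’-LEXO. The pooled SD within diets was 0.68 on the log2 scale in Trad-KAPA, larger than that of 98.5% of 9311 genes, and 0.60 in 3’-LEXO, larger than that of 97.1%. Iron-loaded means were higher in both kits, 467 ± 138 against 338 ± 186 CPM and 294 ± 88.3 against 212 ± 96.0 CPM (SD, n = 3), but the log2 differences of 0.39 ± 0.41 and 0.41 ± 0.35 did not pass the edgeR test (adjusted p = 0.543 and 0.494). Leaving out 1 mouse moved them between 0.06 (without control mouse 1) and 0.94 (without control mouse 3) for Trad-KAPA, and 3’-LEXO moved between 0.12 and 0.84 without the same mice. A diet effect from -0.56 to 1.33 on the log2 scale lies within the 95% interval of Trad-KAPA.

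Pcx, the pyruvate carboxylase gene, was the steadiest member in Trad-KAPA and showed no such steadiness in 3’-LEXO. It measured 696, 693 and 722 CPM on the control diet and 753, 732 and 744 CPM on the iron-loaded diet in Trad-KAPA, with a pooled SD of 0.03 (log2), larger than that of 0.268% of genes, or 0.06 and 5.43% after TMM scaling. In 3’-LEXO it measured 280.1, 245 and 248 CPM and then 173, 262 and 204 CPM, with a pooled SD of 0.23, and 2 of 6 pairs of mice kept their order. The Trad-KAPA groups did not overlap in CPM, but they did after TMM scaling, at 695 to 771 against 706 to 737 (41.9% of all genes were separate on this scale), and the log2 difference was 0.01 ± 0.11 (edgeR, adjusted p = 0.968). In 3’-LEXO the log2 difference was -0.33 ± 0.19 (adjusted p = 0.308), and the difference between the kits, -0.34 ± 0.22, did not pass its test (edgeR, adjusted p = 1.00).

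Fbp1 measured 1130.2, 1033 and 983 CPM in Trad-KAPA controls and 859.7, 919.8 and 951 CPM in iron-loaded mice, so that the groups did not overlap. In 3’-LEXO it measured 446, 553 and 400.0 CPM and then 463, 395 and 396 CPM, with overlap. The log2 differences, -0.27 ± 0.12 in Trad-KAPA and -0.21 ± 0.16 in 3’-LEXO, did not pass the edgeR test (adjusted p = 0.156 and 0.432). In all, groups were separate in CPM for 4 of the 8 genes in Trad-KAPA (Fbp1, Pfkl, Pcx and Slc2a2), beside 41.2% of all genes (24.7% with iron-loaded above and 16.6% below), and for 1 of 8 in 3’-LEXO, Slc2a2, beside 31.3% (18.5% above and 12.8% below).

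Of the glycolysis members, Pfkl measured 42.2, 43.1 and 38.0 CPM in Trad-KAPA controls and 28.3, 37.7 and 34.2 CPM in iron-loaded mice. These groups did not overlap, by a margin of less than 1 CPM. The log2 difference of -0.36 ± 0.14 had an unadjusted p of 0.0274 and an adjusted p of 0.0992 (edgeR). In 3’-LEXO the gene had only 151 to 214 counts per library, at 15.3, 13.1 and 14.4 and then 11.6, 14.4 and 17.3 CPM, and the log2 difference was -0.04 ± 0.19 (edgeR, adjusted p = 0.913), a sign that turned when libraries were scaled by their total counts or thinned to equal counts, and without iron-loaded mouse 1.

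Pklr measured 346, 350.2 and 293 CPM in Trad-KAPA controls and 335, 465 and 474 CPM in iron-loaded mice. The corresponding 3’-LEXO values were 86.3, 117 and 74.4 CPM and then 88.4, 122 and 118 CPM. Iron-loaded mouse 1 lay among the controls in both kits, and the other iron-loaded mice lay above them. The log2 differences were 0.30 ± 0.17 and 0.20 ± 0.20 (edgeR, adjusted p = 0.235 and 0.562). Without iron-loaded mouse 1, the Trad-KAPA difference was 0.48 with an adjusted p of 0.0116, and the 3’-LEXO difference was 0.34 with an adjusted p of 0.256 (edgeR). Iron-loaded mouse 1 was also the lowest of its diet for Pck1, G6pc, Ppargc1a, Pfkl and Slc2a2 in both kits.

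The kits gave different levels for each member from the same RNA. CPM was lower in 3’-LEXO in 6 of 6 mice for G6pc, Fbp1, Pklr, Pfkl, Pcx and Slc2a2, and higher in 6 of 6 mice for Pck1 and Ppargc1a. Of 9311 genes, 79.2% differed in the same direction in all mice (40.6% higher and 38.7% lower in 3’-LEXO), so that a shared direction is the rule rather than a property of these genes. In CPM, Pklr differed most, at a log2 ratio of 3’-LEXO to Trad-KAPA of -1.90 ± 0.16 (SD, n = 6), or 3.74-fold more in Trad-KAPA. Pcx followed at -1.64 ± 0.30, Pfkl at -1.38 ± 0.24, Fbp1 at -1.15 ± 0.20, Slc2a2 at -0.85 ± 0.19 and G6pc at -0.65 ± 0.10. In the other direction, Pck1 was at 0.51 ± 0.16 and Ppargc1a at 0.96 ± 0.25, or 1.42-fold and 1.94-fold more in 3’-LEXO, against a median log2 ratio of 0.03 over all genes. For each member the exact permutation test that flips the sign of each of 6 mice (two-sided) gave its smallest possible p of 0.0313, or 0.0394 after adjustment over all 9311 genes.

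Trad-KAPA yields reads from the whole transcript, so that its counts grow with length, and its values were therefore also taken per kb. The zero of a ratio of CPM to CPM per kb is set by the unit of length, so each ratio is given relative to the median of 2.25 over 9310 genes, a scale added after the values were seen. On it Fbp1 was lowest at -2.64, followed by Pklr at -2.46, Pcx at -1.64, G6pc at -1.63, Pfkl at -0.89 and Slc2a2 at -0.57, each below that median in 6 of 6 mice. Ppargc1a was above it in 6 of 6 mice, at 1.43. The share of all genes with 1 direction in 6 of 6 mice is not given on this scale, and was 79.2% in CPM. Pck1 was at 0.04 and above the median in 2 of 6 mice, so that its direction was not kept. The part of the overlap with Hcn3 in the ratio of Pklr was not tested.

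**Figure D4:**
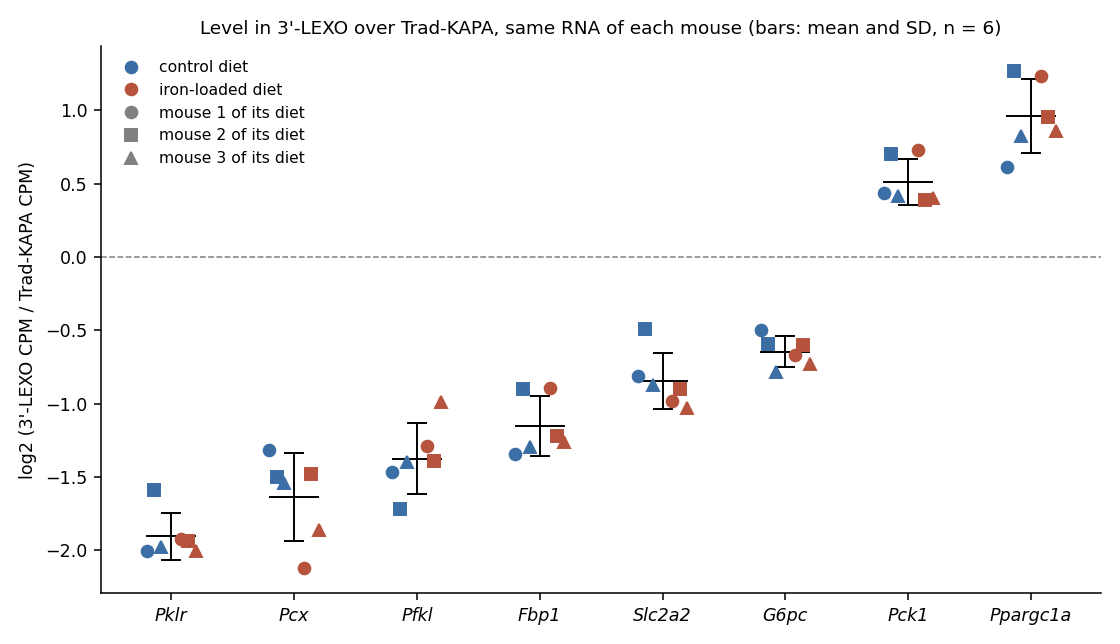
Log2 ratio of CPM in 3’-LEXO to CPM in Trad-KAPA (vertical axis) for the same RNA of each mouse. Symbols are mice, bars are the mean and SD of 6 mice, and genes are ordered by their mean, from -1.90 for Pklr to 0.96 for Ppargc1a.

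The other genes of glucose metabolism were taken from 8 lists of 130 genes, of which 129 were in the count table. Of 124 tested in Trad-KAPA, 20 were called higher and 13 lower on the iron-loaded diet, or 26.6%, beside 17.1% of all genes. Of 122 tested in 3’-LEXO, 8 were called higher and 6 lower, or 11.5%, beside 6.1% of all. In both kits 11 of 122 list genes were called, or 9.02%, beside 5.23% of all genes tested in both. With iron-loaded mice 2 and 3 summed as 1 sample, the counts fell to 16 and 7. Without single mice they ranged from 9 to 43 and from 2 to 18, and a call named below was kept without each mouse only where this is stated.

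Among the 14 other gluconeogenesis and glucose output genes tested, 2 were higher and 2 lower in Trad-KAPA, and 0 were called in 3’-LEXO by edgeR, where 5 had an unadjusted p under 0.05 and DESeq2 called 3. Slc37a4, the transporter that feeds glucose-6-phosphate to G6pc, rose by 0.62 (edgeR, adjusted p = 0.0457) in Trad-KAPA, and Gpt2, an alanine aminotransferase, rose by 1.11 (adjusted p = 0.0321). Gpt2 was highest in iron-loaded mouse 1, at 1008 CPM against 490 and 508 CPM in iron-loaded mice 2 and 3. Without single mice its Trad-KAPA value ranged from 0.74 to 1.35. Cytosolic malate dehydrogenase Mdh1 (-0.71) and glycerol kinase Gk (-0.44) fell. The call of Slc37a4 was lost without any mouse but control mouse 1, that of Mdh1 without any but iron-loaded mouse 1, that of Gpt2 without control mouse 2 or 3, and that of Gk without control mouse 2 or 3 or iron-loaded mouse 2 or 3. The mitochondrial relative of Pck1, Pck2, had log2 differences of 0.70 and 1.02 that missed the threshold (edgeR, adjusted p = 0.0689 and 0.0562), at 2.31 to 8.44 CPM, and G6pc3 had -0.05 and -0.17 (adjusted p = 0.894 and 0.685). The median log2 fold change of this list was 0.14 in both kits.

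Of 23 other glycolysis genes tested in Trad-KAPA, 5 were higher and 0 lower, namely Gpi1, Pfkfb3, Aldoa, Pkm and Minpp1, and of 21 tested in 3’-LEXO 2 were higher, Pfkfb3 and Minpp1. Pfkfb3 makes fructose 2,6-bisphosphate, which activates phosphofructokinase and inhibits Fbp1. It measured 3.5, 4.69 and 2.89 CPM in Trad-KAPA controls and 10.1, 13.1 and 12.6 CPM in iron-loaded mice, and Trad-KAPA gave a log2 fold change of 1.63 ± 0.21 and 3’-LEXO one of 1.25 ± 0.23 (edgeR, adjusted p = 0.00391 and 0.0162). The Trad-KAPA call held without each mouse, while the 3’-LEXO call was lost without control mouse 2, control mouse 3 or iron-loaded mouse 3, with an adjusted p of up to 0.0750 (edgeR). Its relatives Pfkfb1, Pfkfb2 and Pfkfb4 passed in neither kit. Their log2 differences in Trad-KAPA and 3’-LEXO were 0.01 and -0.23 for Pfkfb1, 0.38 and 0.22 for Pfkfb2, and 0.46 and 1.00 for Pfkfb4. Pkm, the relative of Pklr, was higher by 0.77 in Trad-KAPA (adjusted p = 0.0241), a call lost without any mouse but iron-loaded mouse 1, and its 3’-LEXO difference was 0.36 (adjusted p = 0.281). Minpp1, a phosphatase gene, was higher by 0.54 and 0.61, and its calls were lost without control mouse 1, control mouse 3 or iron-loaded mouse 3 in both kits, and in 3’-LEXO also without control mouse 2 or iron-loaded mouse 2. The relatives of Pfkl, Pfkm and Pfkp, passed in neither kit.

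Pyruvate entry held 1 gene called higher (Pdp1) and 2 lower (Pdk2 and Pdk4) of 13 in Trad-KAPA, and 0 in 3’-LEXO by edgeR and by DESeq2, with 1 at an unadjusted p under 0.05. Of 14 glycogen genes, 2 were higher in Trad-KAPA, and 1 was higher and 1 lower in 3’-LEXO. Stbd1, which binds glycogen, measured 36.6, 36.2 and 19.4 CPM in Trad-KAPA controls and 130.5, 85.9 and 82.8 CPM in iron-loaded mice. Trad-KAPA gave a log2 fold change of 1.63 ± 0.24 and 3’-LEXO one of 1.60 ± 0.23 (edgeR, adjusted p = 0.00623 and 0.00523). The call held in both kits without each mouse in turn, with log2 fold changes from 1.39 to 1.76.

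Of 6 fructose and galactose entry genes, 2 were higher and 1 lower in Trad-KAPA, and 1 was higher and 1 lower in 3’-LEXO. Tkfc was higher in both kits, by 0.78 and 0.93, and Galt lower in both, at -0.57 and -0.60. Galk1 was called higher in Trad-KAPA only, by 0.34 (edgeR, adjusted p = 0.0480). Tkfc encodes the triokinase that lets fructose carbon join glycolysis, and Galt encodes a uridylyltransferase of galactose breakdown. Tkfc lost its calls without control mouse 2, control mouse 3 or iron-loaded mouse 3, and in 3’-LEXO also without control mouse 1. Galt lost them without control mouse 1, control mouse 3 or iron-loaded mouse 3, and in 3’-LEXO also without control mouse 2 or iron-loaded mouse 1. The 3’-LEXO call of Galt held in 5 of the 9 other alternatives. Of the 6 other hexose transporters tested, 0 were called in either kit by edgeR, where DESeq2 called 1 in each kit, and 2 in Trad-KAPA and 1 in 3’-LEXO had an unadjusted p under 0.05. Slc2a5, which carries fructose, had log2 differences of -1.28 and -1.27 (edgeR, adjusted p = 0.0574 and 0.0770).

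Of 36 hormone receptor and regulator genes, 6 were higher and 7 lower in Trad-KAPA, and 2 were higher and 3 lower in 3’-LEXO. Nr0b2 (SHP), a nuclear receptor that represses Pck1 and G6pc, measured 18.1, 19.5 and 26.3 CPM in Trad-KAPA controls and 5.14, 6.83 and 7.47 CPM in iron-loaded mice. It fell by 1.79 and 1.71 on the log2 scale in Trad-KAPA and 3’-LEXO (edgeR, adjusted p = 0.00363 and 0.00440), and both calls held without each mouse in turn. Foxo1, Irs1, Crem, Stk11 and Mlxipl, which encodes ChREBP, were called lower in Trad-KAPA and not in 3’-LEXO. Cebpb, Nr4a1, Prkaa2 and Txnip were called higher in Trad-KAPA only, and Foxa1 lower in 3’-LEXO only. Sik1, a kinase that restrains cAMP-driven gluconeogenic transcription, was higher in both kits, by 1.16 and 1.11. Its Trad-KAPA call was lost without any mouse but iron-loaded mouse 1, and its 3’-LEXO call without any 1 control mouse or iron-loaded mouse 3. Foxa2, a forkhead factor gene, was lower in both, at -0.68 and -0.88, and lost its calls without control mouse 1, control mouse 3, iron-loaded mouse 2 or iron-loaded mouse 3, and in Trad-KAPA also without control mouse 2. Ppargc1b, the relative of Ppargc1a, had 0.61 and 0.52 (edgeR, adjusted p = 0.0540 and 0.133).

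Trib3, a pseudokinase of the stress response, measured 36.7, 15.1 and 18.4 CPM in Trad-KAPA controls and 521, 68.1 and 66.5 CPM in iron-loaded mice. Trad-KAPA gave a log2 fold change of 3.12 ± 0.80 and 3’-LEXO one of 2.94 ± 0.67 (edgeR, adjusted p = 0.0329 and 0.0359). Iron-loaded mouse 1 set much of this size, since without it the values were 1.48 and 1.60, still called, while the calls were lost without any 1 control mouse, with an adjusted p up to 0.132 (edgeR). Igfbp1, an insulin-repressed gene of the fasting list, was also highest by far in iron-loaded mouse 1, at 50.5, 45.6 and 84.3 CPM in Trad-KAPA controls and 1367, 256 and 258 CPM in iron-loaded mice. Its log2 fold change was 3.27 ± 0.66 and 3.21 ± 0.60 (edgeR, adjusted p = 0.0158 and 0.0169), fell to 2.05 in both kits without iron-loaded mouse 1, and lost its call without control mouse 1 or 2 in both kits and without control mouse 3 in 3’-LEXO. This mouse, highest for Igfbp1 and Trib3, was the lowest of its diet in both kits for Pck1, Ppargc1a, G6pc, Slc2a2, Pfkl and Pklr. For Pcx it was the highest in Trad-KAPA and the lowest in 3’-LEXO, and for Fbp1 the reverse. This is a single mouse, and a link between these genes was not tested.

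On the fasting list of 12 genes, 2 were higher and 1 lower in each kit, Igfbp1 being one of the higher genes in both. The other was Per1 in Trad-KAPA and Tat in 3’-LEXO. Per1 had log2 differences of 2.18 and 1.86 in these kits (edgeR, adjusted p = 0.0225 and 0.0718), and Tat had 0.87 and 0.95 (adjusted p = 0.0808 and 0.0477), so that each gene had similar values in both. Acot1, a thioesterase gene driven by PPARα, was lower by 2.82 and 2.31 on the log2 scale (edgeR, adjusted p = 0.0127 and 0.0176). The Trad-KAPA call of Acot1 held without each mouse, with an adjusted p of up to 0.0407 (edgeR). Its 3’-LEXO call was lost without control mouse 2, control mouse 3 or iron-loaded mouse 3. Without control mouse 2 its value was -1.78 in 3’-LEXO and -2.14 in Trad-KAPA, and reads may be shared with its near-identical neighbours.

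**Figure D5:**
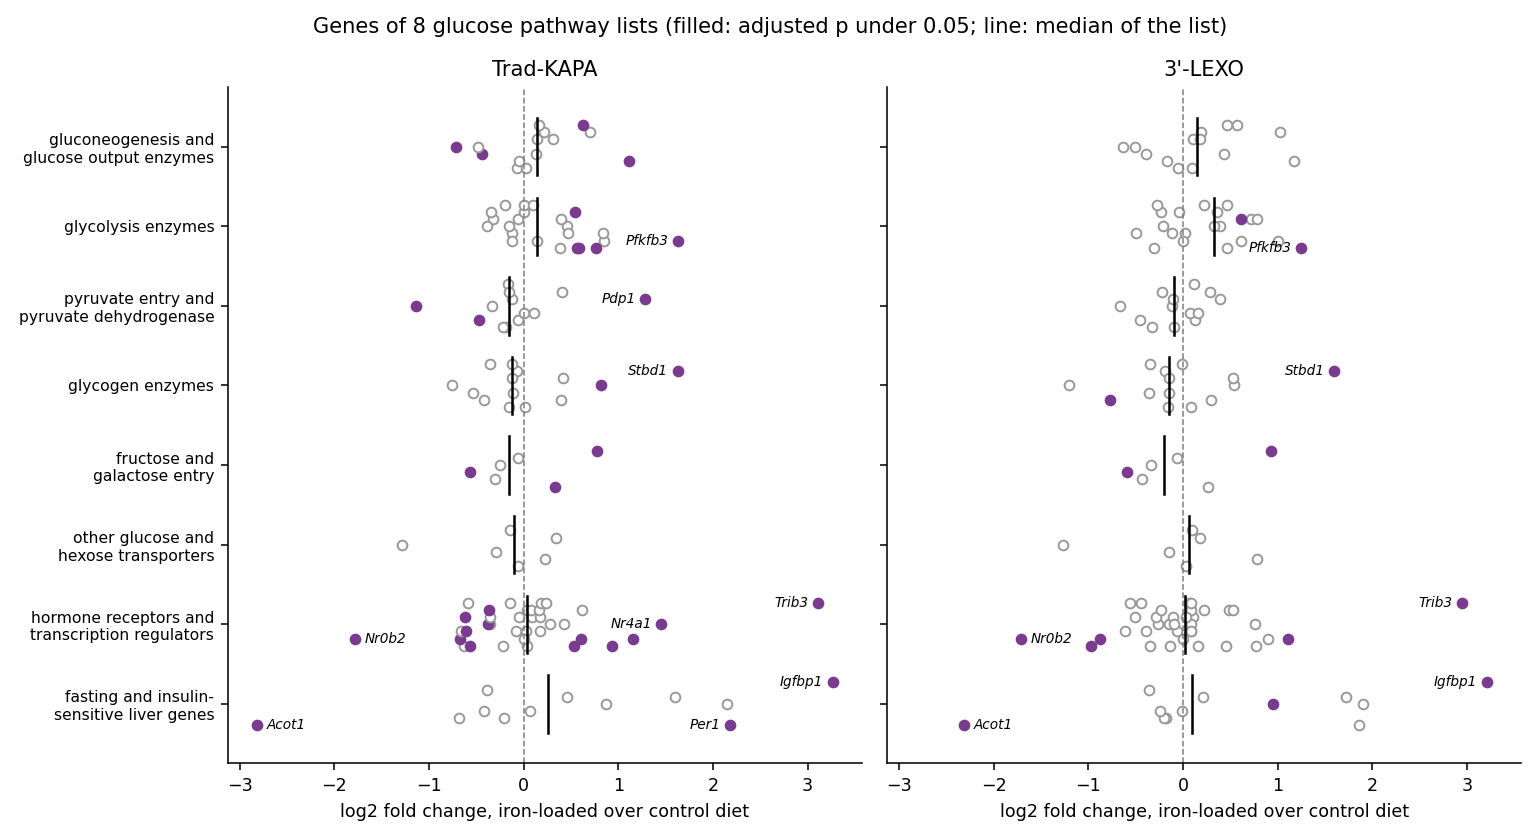
Log2 fold change (horizontal axes, iron-loaded over control diet) of the tested genes of 8 lists in Trad-KAPA (left) and 3’-LEXO (right). Each point is a gene, filled where the adjusted p is under 0.05, with names where a called gene exceeds 1.2 in size, and black lines are list medians; calls lie on both sides of 0 in several lists, and hexose transporters have none.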

How the data were processed

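The authors mapped single-end reads with STAR 2.5.3a to mm10 (GRCm38) and deposited raw counts of reads mapped uniquely to exons, for 27022 genes. The counting program and the annotation release are not given in the sources used here. GENCODE M21 supplied symbols and exon lengths for 26949 of the genes. Groups followed the sample labels, and a replicate number was taken to name the same mouse in both kits. Deviations from the diet mean were correlated between kits over 9311 genes. For control mice and iron-loaded mouse 1, r was highest for the same number. It did not settle the pairing of iron-loaded mice 2 and 3, at 0.547 and 0.610 for the same number and 0.623 and 0.550 across numbers.

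Diet was tested within each kit with edgeR 4.0.16 (R 4.3.3), with TMM scaling, filterByExpr, the quasi-likelihood F test and Benjamini-Hochberg adjustment over all genes at 0.05. The interaction was tested over all 12 libraries without pairing them by mouse, and the mouse as a block was an alternative. Kit ratios used the exact sign-flip test over 6 mice, adjusted over all genes rather than over the 8 members alone. In all, 63 alternatives were planned and 6 added, among them DESeq2 1.42.0. The fits were tested on simulated counts. A few genes of the lists are not reported here and were left out of the list counts, while all tests and adjustments ran over the whole table. The members and gene lists were chosen with earlier results of these data known. All 8 members were named, with at most 6 genes of each list called in both kits and 7 relatives of the members, and other genes were named because they were called in 1 kit. A few more were named to be set beside genes of their list. Precision is that of 3 mice per diet from a single cage, and p-values measure the spread between these mice.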

Additional observations from a re-analysis of the deposited data

Results flagged for a closer look

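The log2 ratio of 3’-LEXO to Trad-KAPA for Pklr was -1.59 in control mouse 2, apart from the other 5 mice, which lay between -2.003 and -1.92. The gap to the nearest mouse made up 0.804 of the whole range, above the 95% critical value of Dixon for 6 samples. Chance passes this limit in about 1 of 20 groups, and 8 groups, the ratios of the 8 members, were examined. Without that mouse the mean ratio was -1.97.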

How the results depend on the processing

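With iron-loaded mice 2 and 3 summed as 1 sample, chosen after seeing the data, genes called fell to 1147 in Trad-KAPA and 445 in 3’-LEXO, members called in Trad-KAPA to 0 and list genes to 16 and 7. In 3’-LEXO the genes called were 1681 in 1 fit over 12 libraries, 1313 with DESeq2, 2040 without a filter and 436 with the replicate number as a block, and the list genes 21, 22, 28 and 6, and DESeq2 called 1 member. Replicate numbers do not pair mice across diets (r of deviations -0.168 to 0.101), and the block left Slc2a2 called in Trad-KAPA at 0.78. Leaving out 1 mouse gave 841 to 2803 genes, 0 to 2 members and 9 to 43 list genes in Trad-KAPA, and 199 to 871, 0 to 1 and 2 to 18 in 3’-LEXO.

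Small differences changed sign, none of them called. Between the kits' diet effects these were Pck1 (0.0158 with DESeq2 size factors, 0.0155 with DESeq2, 3.64e-06 with the mouse as a block) and G6pc (-0.0281 with that block). Others were Ppargc1a in 3’-LEXO (-0.0522, mice summed), Pfkl in 3’-LEXO (0.00588 at 10 M counts, 0.0123 by total counts) and G6pc3 in Trad-KAPA (0.0341 with mice summed, 0.0268 by total counts). Kit ratios with Trad-KAPA per kb, whose zero depends on the unit of length, were 0.62 (G6pc), 1.36 (Pfkl), 0.61 (Pcx), 1.68 (Slc2a2) and -0.21 (Pklr). Relative to the median of all genes on that scale, also chosen after seeing the data, Pck1 was at 0.0381 and the other 7 members kept their direction in 6 of 6 mice. The share of all genes that did so on that scale is not given here. Without single mice, Trad-KAPA differences ranged from -0.29 to 0.13 for Pck1, -0.27 to 0.14 for Ppargc1a, -0.0178 to 0.0572 for Pcx and -0.25 to 0.12 for G6pc3. Those of 3’-LEXO ranged from -0.24 to 0.0199 for Pck1, -0.0824 to 0.18 for Ppargc1a, -0.22 to 0.11 for Pfkl and -0.0246 to 0.89 for Pfkp. Differences between kits ranged from -0.0646 to 0.0675 (Pck1), -0.0895 to 0.0910 (G6pc), -0.0297 to 0.21 (Fbp1), -0.00222 to 0.28 (Ppargc1a) and -0.16 to 0.0468 (Pklr). The cause of these changes was not tested. The precision is limited by 3 mice per diet, and for Pfkl and Ppargc1a also by 151 to 698 counts per library.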
